A study of Sus scrofa with 92 samples.

Results

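Gene expression in the lung of young pigs was compared between Chinese and Western breeds. The lung libraries are 8 of the 92 libraries of the series, chosen by their tissue label. The Chinese breeds were Bamei, Jinhua and Meishan, and the Western breeds were Berkshire, Hampshire, Landrace, Large White and Piétrain. All pigs were 60 days old, and no treatment is named for any of them. Each breed gave 1 lung library, so breeds are the replicates (n = 3 Chinese, n = 5 Western), and all p-values measure the spread between breeds. The labels do not say whether a library came from 1 animal or from pooled animals, nor whether all tissues of a breed came from the same pig. Breed origin is not in the labels and was assigned from general knowledge of the breeds. Values are FPKM (fragments counted on a gene, divided by its length and by the total of the library), scaled between libraries.

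The lung combines thin alveolar type 1 cells, through which gas is exchanged, with surfactant-producing type 2 cells, airway cells that secrete secretoglobins, a dense capillary bed, and resident macrophages and lymphocytes. Pigs were domesticated separately in East Asia and in western Eurasia, so Chinese and Western breeds differ at many places in the genome. Among the genes in which the lungs differed are a guanylate-binding protein, from a family of GTPases that interferons induce for defence inside the cell, and X-linked genes of the ARMCX and BEX families, which lie near each other and are known mainly from nervous tissue. Roles given for single genes are those known from human and mouse.

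The libraries held lung tissue by their markers. Of the markers of alveolar, airway and macrophage cells that could be matched, AGER, AQP5, SFTPB, SFTPC, SFTPD, ABCA3, NAPSA, SLC34A2, SCGB1A1, SCGB3A1, SCGB3A2, FOXJ1, MARCO and MSR1 all had a higher median in lung than in the other 8 tissues. SFTPC, the surfactant protein made only by type 2 cells, was at 3056 to 4161 scaled FPKM in the Chinese lungs and 3411 to 5838 in the Western lungs. The liver secretory gene AHSG was at 0 in all 8 lungs, and the heart gene TNNT2 was at or below 2.40 in the Chinese lungs and 2.08 in the Western lungs. Cartilage COL2A1 varied widely and overlapped, at 5.10 to 40.6 in the Chinese lungs and 3.17 to 42.6 in the Western lungs, as did haemoglobin HBB, at 532 to 2764 in the Chinese lungs and 790 to 5883 in the Western lungs. Between 13623 and 13819 gene IDs reached 1 FPKM in a lung library. A single ID without a symbol, ENSSSCG00000018657, made up 49.1% of the summed FPKM in the Jinhua lung and 48.4% in the Landrace lung. Relative depth, estimated from low values and set to 1 for Berkshire, was 0.959 to 1.16 in the Chinese lungs and 0.859 to 1.06 in the Western lungs (exact permutation test, two-sided, p = 0.214, where the smallest possible p is 0.0357). Absolute depth is unknown. Over all genes, the Spearman correlation of lung libraries had a median of 0.950 for Chinese with Western pairs, against 0.951 for Chinese with Chinese and 0.953 for Western with Western pairs.

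One library outside the lung went against its label. For each tissue, genes were collected whose Chinese and Western libraries did not overlap, in 1 direction, in at least 6 of the other 8 tissues, and each library was placed nearer to its own or to the other origin. The 8 lungs lay nearer their own origin in 88.6% to 97.1% of 35 such genes. Of the other 64 libraries of the 8 breeds, 63 did so in 77.8% to 100% of genes. The library labelled Berkshire spleen did so in 9.52%, or 4 of 42 genes, and lay nearer the Chinese spleens in the rest. It plays no part in the lung comparison, and enters only where lung is set against the other tissues. The test of lung against the other tissues was run with and without it.

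Few single genes passed the test. Of 14034 genes tested, 23 were called at an adjusted p below 0.05 (limma, Benjamini-Hochberg), which is 0.164% of them. In the Chinese lungs 6 were higher (0.0428%) and 17 lower (0.121%). An unadjusted p below 0.05 was reached by 1121 genes (7.99%). The values of the 3 Chinese and 5 Western libraries did not overlap in 726 genes (5.17%), of which 368 were higher (2.62%) and 358 lower (2.55%) in the Chinese lungs. The median difference over all genes was 0.00 on the log2 scale, and 6874 genes (49.0%) were above 0. Of the called genes, 8 carry a symbol. A gene was tested when at least 3 lungs reached 1 FPKM, and 10 of the 23 called genes met this through 1 group alone, 2 with no Western lung and 8 with no Chinese lung at 1 FPKM, so that these genes had to differ. The number called fell to 11 without the Bamei lung, to 10 without the Meishan lung, and to 5 without Jinhua and Landrace together. Differences are given as the Chinese minus the Western mean of log2(scaled FPKM + 1), ± SE, a scale that understates the change of genes at low level.

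**Figure D1:**
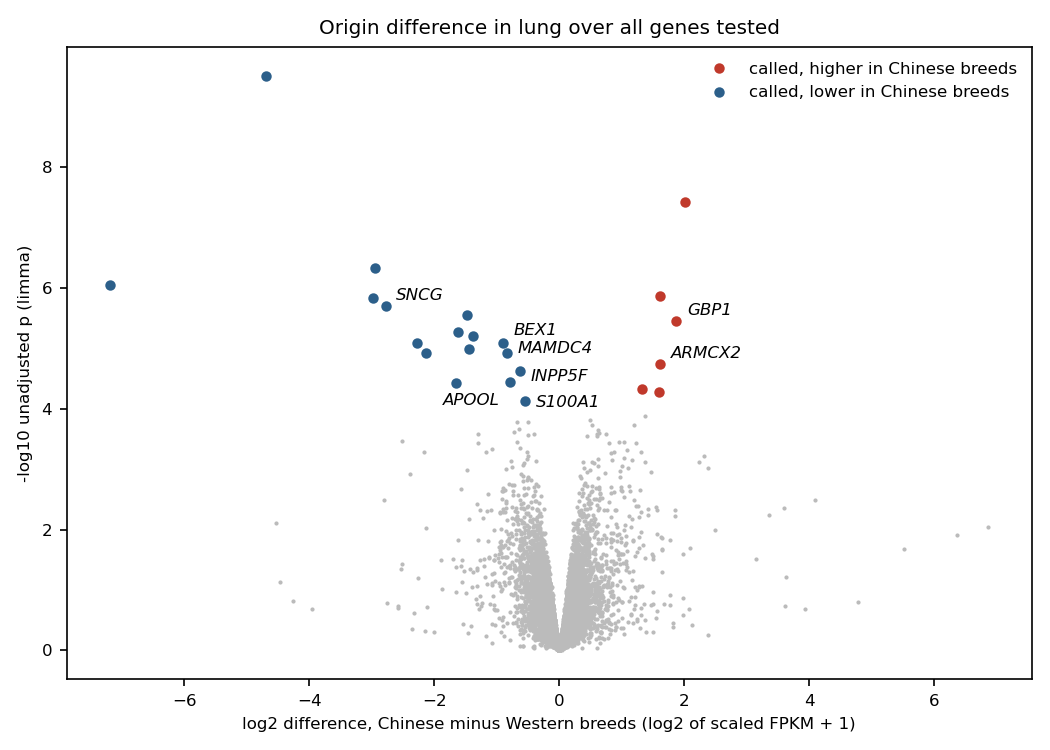
Each point is 1 of the 14034 genes tested in lung, with the log2 difference (Chinese minus Western breeds) on the horizontal axis and -log10 of the unadjusted limma p on the vertical axis. The 6 genes called higher in Chinese breeds are red and the 17 called lower are blue, and the 8 called genes with a symbol are named.

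GBP1, an interferon-inducible guanylate-binding GTPase, was higher in the Chinese lungs. It was at 9.59 in Bamei, 5.97 in Jinhua and 10.2 in Meishan, against 1.16 in Berkshire, 1.88 in Hampshire, 1.63 in Landrace, 1.46 in Large White and 1.74 in Piétrain (scaled FPKM). The lowest Chinese lung was thus well above the highest Western lung. The means were 8.60 ± 2.30 in the Chinese and 1.57 ± 0.278 in the Western lungs (SD, n = 3 and 5), and the log2 difference was 1.88 ± 0.18 (limma adjusted p = 0.00558). The call held in all 15 alternative settings, with adjusted p between 0.00394 and 0.0444. GBP1 belongs to a family of similar genes, and how reads shared between them were counted is not given in the sources used here.

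ARMCX2, an X-linked gene with armadillo repeats whose family is tied to mitochondria, was the other named gene that was higher. It was at 16.1 in Bamei, 23.0 in Jinhua and 19.7 in Meishan, against 4.32 in Berkshire, 5.17 in Hampshire, 7.75 in Landrace, 4.74 in Large White and 6.79 in Piétrain. The groups did not overlap. The log2 difference was 1.62 ± 0.19 (limma adjusted p = 0.0150), with means of 19.6 ± 3.44 in the Chinese and 5.75 ± 1.45 in the Western lungs. The call was lost, at adjusted p of 0.0510, 0.101 and 0.0938, when Bamei, Jinhua or Meishan was left out, and at 0.0962 without Jinhua and Landrace together.

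SNCG, gamma-synuclein, a small protein of neurons and fat cells, had the largest difference of the 8 called genes with a symbol. It was at 0.460 in Bamei, 0.914 in Jinhua and 0.761 in Meishan, against 9.98 in Berkshire, 11.9 in Hampshire, 6.58 in Landrace, 10.3 in Large White and 16.4 in Piétrain. Every Chinese lung was below 1 FPKM and every Western lung above 6, so SNCG met the filter on low values through the Western lungs alone. The Western mean was 15.5 times the Chinese mean, and the log2 difference was -2.77 ± 0.24 (limma adjusted p = 0.00404). The call held in all 15 alternative settings, with adjusted p between 0.00224 and 0.0364. Of 2 other tested genes in the list of neurons and glia, SYP, a synaptic vesicle protein, was at 2.60 to 4.30 in the Chinese and 0.590 to 1.40 in the Western lungs and did not pass (log2 difference 1.03 ± 0.18, limma adjusted p = 0.112). The median of the 3 tested genes of this list was 0.08, which is the value of the remaining gene.

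The X-linked adaptor gene BEX1 was lower in the Chinese lungs. It was at 8.51 in Bamei, 9.06 in Jinhua and 7.46 in Meishan, against 16.7 in Berkshire, 17.5 in Hampshire, 16.3 in Landrace, 14.3 in Large White and 17.5 in Piétrain. The groups were separated and the libraries within each lay close together. The log2 difference was -0.90 ± 0.09 (limma adjusted p = 0.00876), and the call was lost without Bamei (0.0578), without Meishan (0.0674) and without Jinhua and Landrace together (0.111).

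MAMDC4, which encodes an apical endosomal glycoprotein with MAM domains, was also lower. It was at 2.03 in Bamei, 2.34 in Jinhua and 2.26 in Meishan, against 4.96 in Berkshire, 4.36 in Hampshire, 4.75 in Landrace, 4.46 in Large White and 5.20 in Piétrain. The groups did not overlap and differed by -0.84 ± 0.09 on the log2 scale (limma adjusted p = 0.0106). The call was lost when Bamei (0.0760), Jinhua (0.0537) or Meishan (0.0742) was left out, and without Jinhua and Landrace together (0.189). Of the 7 MAM domain genes tested, MAMDC4 was the single one called, beside 0.164% of all genes tested, and the median of the list was 0.02.

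APOOL, a subunit of the mitochondrial complex that shapes cristae, was lower in every Chinese lung. It was at 5.52 in Bamei, 5.85 in Jinhua and 6.33 in Meishan, against 12.6 in Berkshire, 10.7 in Hampshire, 10.5 in Landrace, 11.7 in Large White and 9.44 in Piétrain. The log2 difference was -0.79 ± 0.10 (limma adjusted p = 0.0262), and the call was lost in 8 of 15 alternative settings, which included leaving out any library but Piétrain. Among 15 genes of oxidative phosphorylation and mitochondrial structure it was the single one called, beside 0.164% of all genes tested, with a list median of 0.02. ATPAF2, an assembly factor of ATP synthase, came next at 6.60 in Bamei, 5.65 in Jinhua and 5.08 in Meishan, against 8.20 to 9.61 in the Western lungs, and did not pass (log2 difference -0.52 ± 0.09, limma adjusted p = 0.134).

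The remaining named calls were small differences. INPP5F, a phosphatase of inositol lipids in endocytic membranes, was at 9.30 in Bamei, 8.50 in Jinhua and 9.18 in Meishan, against 14.6 in Berkshire, 13.5 in Hampshire, 15.9 in Landrace, 14.1 in Large White and 14.3 in Piétrain (log2 difference -0.63 ± 0.08, limma adjusted p = 0.0182). S100A1, a calcium-binding protein, was at 42.3 in Bamei, 45.0 in Jinhua and 42.5 in Meishan, against 59.6 in Berkshire, 65.5 in Hampshire, 67.6 in Landrace, 65.7 in Large White and 59.8 in Piétrain (log2 difference -0.54 ± 0.08, limma adjusted p = 0.0451). Neither group overlapped the other, but the calls were lost in 7 and 11 of 15 alternative settings, among them leaving out any 1 of the 3 Chinese lungs (0.0888 to 0.124 for INPP5F, 0.167 to 0.183 for S100A1). Without Berkshire, Large White or Piétrain the INPP5F call was lost too (0.0555 to 0.0744), and the S100A1 call was lost without any 1 of the 5 Western lungs (0.0887 to 0.121).

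**Figure D2:**
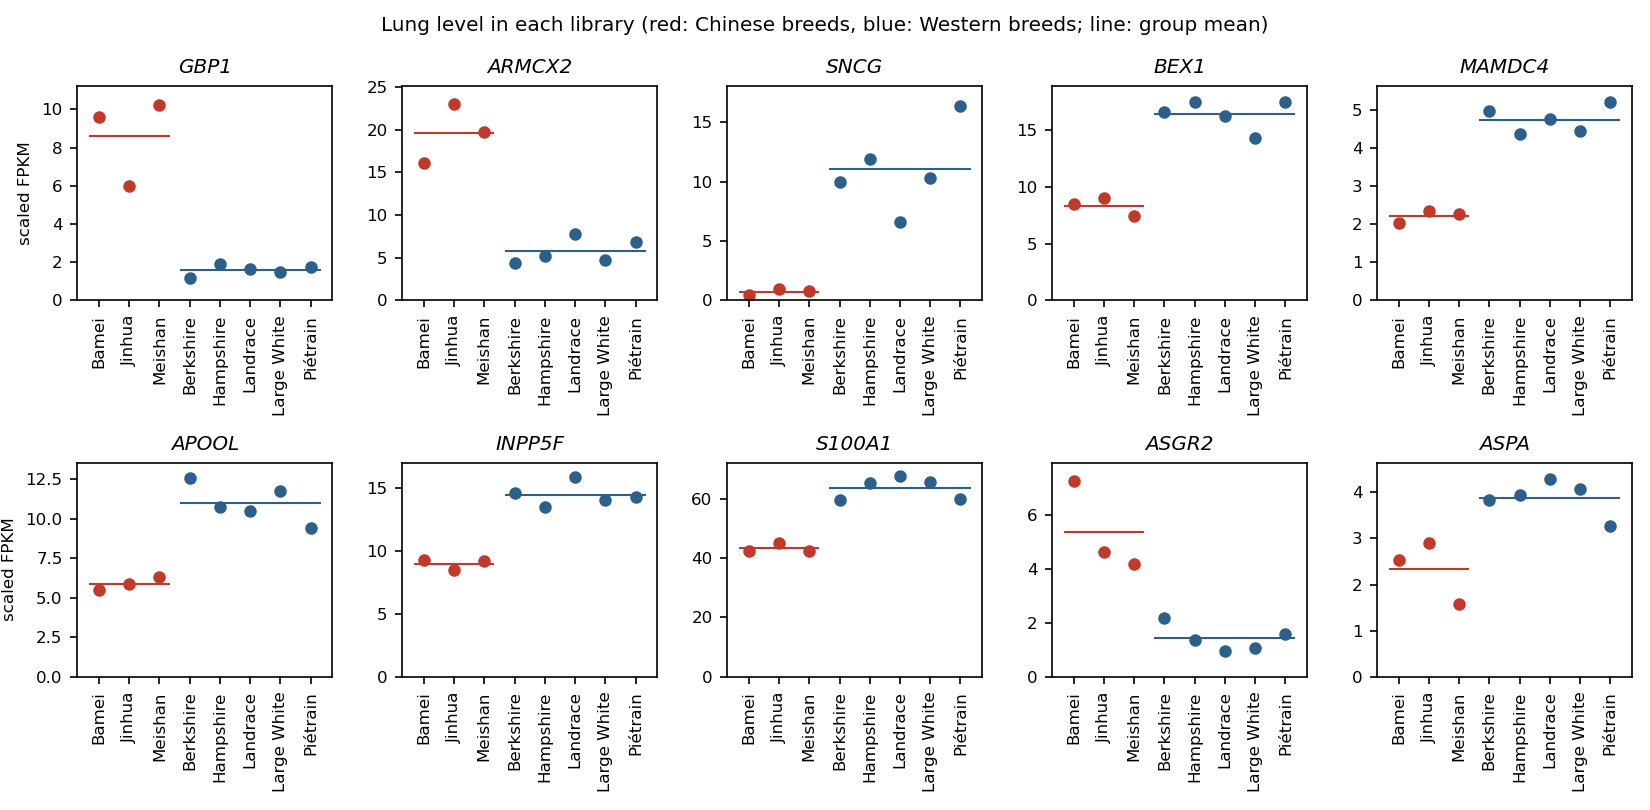
Scaled FPKM in each of the 8 lung libraries (linear axes from 0), Chinese breeds in red on the left and Western breeds in blue on the right, with a line at each group mean. In all 10 panels the groups do not overlap, and SNCG falls below 1 in all 3 Chinese lungs.

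The other 15 called genes have no symbol in the names used here, and the 2 with the largest difference in each direction are given, chosen after their values were seen. ENSSSCG00000024803 was at 2.76 in Bamei, 0.403 in Jinhua and 0 in Meishan, against 216 in Berkshire, 183 in Hampshire, 163 in Landrace, 215 in Large White and 714 in Piétrain. Its log2 difference was -7.18 ± 0.56 (limma adjusted p = 0.00316), and the call was lost without Jinhua and Landrace together (0.0583). ENSSSCG00000021965 was at 0.588 in Bamei, 0.238 in Jinhua and 0.763 in Meishan, against 33.1 in Berkshire, 39.2 in Hampshire, 34.7 in Landrace, 44.5 in Large White and 40.0 in Piétrain (log2 difference -4.69 ± 0.14, limma adjusted p = 4.31e-06). Both are expressed clearly in every Western lung and near or below 1 in nearly every Chinese lung. ENSSSCG00000021965 reached 1 FPKM in no Chinese lung, so it met the filter on low values through the Western lungs alone and had to differ. ENSSSCG00000021339 was at 14.5 in Bamei, 11.5 in Jinhua and 11.9 in Meishan, against 2.06 to 2.69 in the Western lungs (log2 difference 2.01 ± 0.11, limma adjusted p = 0.000262). ENSSSCG00000026306 was at 1.77 in Bamei, 2.21 in Jinhua and 2.54 in Meishan, and was listed at 0 in all Western lungs but Hampshire, where it was at 0.147 (limma adjusted p = 0.00347). It passed the filter on low values through the Chinese lungs alone, and in 5 of the 15 alternative settings it was not tested.

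Of the 7 called genes that have both a symbol and a chromosome in the RefSeq annotation of Sscrofa11.1, BEX1, ARMCX2 and APOOL lie on X. Of 8501 tested genes with both, 303 (3.56%) lie there. Sex was not among the sample labels used here. Every breed with a lung library also has an ovary library, but whether both came from the same pig is not said. The ARMCX, BEX and related genes did not move as 1 block. Of 10 tested, 1 was called higher and 1 lower, 5 were above and 5 below 0, and the median was -0.07, beside a median of 0.00 over all genes. Of all genes tested, 0.0428% were called higher and 0.121% lower. The median of the list changed sign to 0.03 with a filter at 5 FPKM. BEX3 differed by 0.03 ± 0.18 and ARMCX5 by 0.03 ± 0.12, while BEX4 differed by 0.32 ± 0.14 and ARMCX6 by -0.17 ± 0.12, none past the threshold (limma adjusted p from 0.619 to 0.988).

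Genes just outside the threshold were read by the smallest p with a symbol. On the higher side in the Chinese lungs stood ASGR2 (log2 difference 1.38 ± 0.21, limma adjusted p = 0.0758), the DNA repair factor APLF (0.49 ± 0.07), the ribosome assembly factor RRP36 (0.53 ± 0.08) and CLIC6 of the chloride intracellular channel family (1.20 ± 0.19). After them came PAFAH1B3, a catalytic subunit of platelet-activating factor acetylhydrolase (0.64 ± 0.11), the protocadherin PCDH19 (0.61 ± 0.10), DCTD, which makes a precursor of thymidine nucleotides (0.44 ± 0.07), and NFKB2, a subunit of NF-kappaB (0.74 ± 0.12). NFKB2 was at 29.8 in Bamei, 30.0 in Jinhua and 22.6 in Meishan, against 13.8 in Berkshire, 18.3 in Hampshire, 15.4 in Landrace, 15.3 in Large White and 16.9 in Piétrain. CLIC6 was at 9.05 to 12.6 in the Chinese and 2.57 to 5.45 in the Western lungs. On the lower side stood LARP7, which binds the 7SK RNA (-0.68 ± 0.11), TMEM254 (-0.49 ± 0.08) and NIPSNAP3A (-0.49 ± 0.08). These 11 genes had limma adjusted p between 0.0758 and 0.0993 and are not called.

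Whether a difference was particular to lung was tested by taking, for each breed, lung minus the mean of its 8 other tissues and comparing that between origins. Of 14034 genes 5 were called (0.0356%, limma adjusted p below 0.05), and 931 (6.63%) had an unadjusted p below 0.05. The same 5 were called without the library labelled Berkshire spleen. All of the 8 named lung calls were outside the 5: the difference was 1.19 ± 0.19 for ARMCX2 (adjusted p = 0.167), 0.78 ± 0.16 for GBP1 (0.380), -0.35 ± 0.11 for INPP5F (0.635), -0.45 ± 0.16 for S100A1 (0.655), and between 0.11 and 0.17 for SNCG, BEX1, MAMDC4 and APOOL (0.879 to 0.934). Without the library labelled Berkshire spleen the difference was 1.19 for ARMCX2 (limma adjusted p = 0.157), 0.71 for GBP1 (0.345), -0.35 for INPP5F (0.647) and -0.38 for S100A1 (0.823), and between 0.16 and 0.22 for SNCG, BEX1, MAMDC4 and APOOL (0.837 to 0.876).

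ASGR2, the minor subunit of the asialoglycoprotein receptor of liver, was called in that test. In lung it was at 7.26 in Bamei, 4.65 in Jinhua and 4.19 in Meishan, against 2.19 in Berkshire, 1.36 in Hampshire, 0.967 in Landrace, 1.06 in Large White and 1.57 in Piétrain. All Chinese lungs were above all Western lungs. In liver, where it is highest, its mean was 217 in the Chinese and 290 in the Western breeds (scaled over all tissues). In ovary its mean was 7.91 in the Chinese and 2.92 in the Western breeds, with overlapping groups, and the log2 difference there was 1.04, beside 1.22 in lung on the same scale. Of the other 8 tissues, 2 (liver and ovary) had at least 3 libraries at 1 FPKM. The difference between lung and the other tissues was 1.13 ± 0.14 (limma adjusted p = 0.0350), and 1.17 (0.00756) without the library labelled Berkshire spleen. Of 11 liver genes matched, AHSG, FGG and CYP2E1 were at 0 in all 8 lungs and 7 others were at or below 0.394 in the Chinese and 0.425 in the Western lungs. The eleventh, APOA1, was at 22.1 or more in the Chinese and 34.0 or more in the Western lungs.

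ASPA, which splits N-acetylaspartate, was called in the other direction. In lung it was at 2.53 in Bamei, 2.89 in Jinhua and 1.58 in Meishan, against 3.83 in Berkshire, 3.93 in Hampshire, 4.29 in Landrace, 4.08 in Large White and 3.26 in Piétrain. The lung groups did not overlap, yet the lung difference alone was not called (-0.57 ± 0.15, limma adjusted p = 0.325). Its log2 difference was above 0 in 7 of the other 8 tissues, from -0.09 in heart to 1.89 in liver, and in psoas major all Chinese libraries were above all Western ones. The lung minus other difference was -1.03 ± 0.12 (limma adjusted p = 0.0314), and -1.03 (0.0213) without the library labelled Berkshire spleen. The calls of ASGR2 and ASPA were lost in 11 and 10 of 17 alternative settings. Leaving out Landrace, Large White, Piétrain, Bamei or Jinhua ended both (adjusted p 0.0612 to 0.128), leaving out Hampshire ended that of ASGR2 (0.0873), and leaving out Meishan that of ASPA (0.0907).

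The other 3 genes called in this test have no symbol. ENSSSCG00000024803 (difference -6.77 ± 0.51, limma adjusted p = 0.000592) and ENSSSCG00000021965 (-3.32 ± 0.19, 0.000154) are the IDs already described, and both had their highest median in lung among the 9 tissues. The filter on low values was the same here, so ENSSSCG00000021965 entered this test too through the Western lungs alone. For ENSSSCG00000024803, 0 of the other 8 tissues had at least 3 libraries at 1 FPKM, so the test largely repeats the lung comparison. ENSSSCG00000021965 was lower in the Chinese breeds in all 8 other tissues too, by -0.10 in liver to -1.69 in psoas major. Its groups did not overlap in 6 of them. On this log2 scale its difference was larger in lung, at -4.30 with all tissues scaled together, but not limited to lung. Of the other 8 tissues, 5 had at least 3 libraries at 1 FPKM, and the scale understates differences at low level. In spleen it was at 0.363 to 0.998 in the Chinese libraries. There 4 Western spleens were at 1.87 to 3.62 and the library labelled Berkshire spleen at 0.553. ENSSSCG00000011147 was at 3.42 in Bamei, 1.27 in Jinhua and 1.64 in Meishan, against 24.5 in Berkshire, 25.6 in Hampshire, 18.4 in Landrace, 16.8 in Large White and 28.9 in Piétrain, with a difference of -3.14 ± 0.20 (limma adjusted p = 0.000174). It was called in lung alone as well (-2.97 ± 0.25, limma adjusted p = 0.00347). Outside lung its difference ran from -0.09 in longissimus dorsi to 1.88 in ovary, and was below 0 in 3 of the 8 tissues. Its highest median was in liver, and 4 of the 8 tissues had at least 3 libraries at 1 FPKM. Without the library labelled Berkshire spleen the lung minus other differences of the 3 IDs were -6.77, -3.29 and -3.09 (limma adjusted p from 0.00018 to 0.000603).

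Read across tissues with all single-tissue libraries scaled together, several lung differences recurred elsewhere. The groups of the same 8 breeds did not overlap in 5.19% of genes in heart, 4.27% in liver, 2.31% in spleen, 5.43% in kidney, 3.82% in psoas major, 5.29% in longissimus dorsi, 5.57% in adipose and 4.35% in ovary. SNCG was lower in the Chinese breeds in all 8 other tissues, by -1.65 in spleen to -3.06 in heart on the log2 scale, and its groups were apart in 7 of them. MAMDC4 (-0.63 to -1.08) and APOOL (-0.55 to -1.23) were lower, and GBP1 (0.43 to 1.41) was higher, in all 8 as well, again without overlap in 7. For GBP1, however, 4 of the 8 tissues had at least 3 libraries at 1 FPKM, and the shares above count only genes that did. BEX1 was lower in all 8 (-0.23 to -2.10) without overlap in 5. For SNCG, MAMDC4, APOOL and GBP1 the tissue with overlap was spleen. There SNCG was at 0.194 to 0.483 in the Chinese spleens, against 3.23 to 6.90 in 4 Western spleens and 0.247 in the library labelled Berkshire spleen. GBP1 was at 6.89 to 10.8 in the Chinese spleens, against 1.44 to 2.30 in 4 Western spleens and 8.81 in that library. Without it the groups were apart in spleen for all 4 genes and for BEX1, beside 7.55% of genes. These genes separate the origins in at least 6 of the 8 tissues other than spleen, the rule that chose the genes of the label check. Their separation once that library is left out is therefore not independent of the check. The spleen differences were then -2.07 for SNCG, 1.78 for GBP1, -0.76 for MAMDC4, -0.66 for APOOL and -0.78 for BEX1, and that of GBP1 was above its 1.70 in lung on this scale.

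ARMCX2 looked different. Its log2 difference was 1.56 in lung on this scale and 0.03 (spleen) to 0.66 (liver) elsewhere, and outside lung its groups were apart in liver alone. In kidney, the tissue with its highest median, its mean was 10.3 in the Chinese and 8.99 in the Western breeds. As given above, the test of lung against the other tissues did not call it. INPP5F was -0.60 in lung and -1.19 in heart, and between -0.43 and 0.13 in the other 7 tissues. S100A1 ranged from -1.19 in liver to 0.81 in heart.

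**Figure D3:**
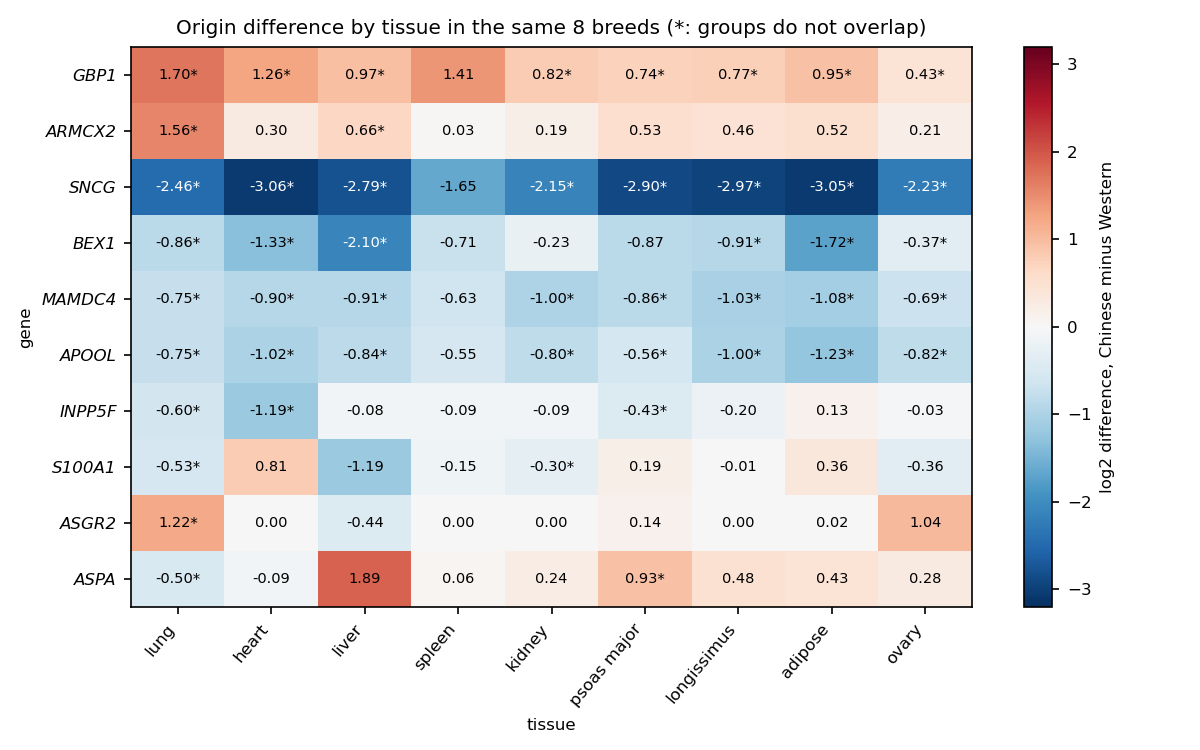
Log2 difference (Chinese minus Western breeds) of 10 genes in lung and 8 other tissues of the same 8 breeds, all libraries scaled together, with red for higher and blue for lower in Chinese breeds. An asterisk marks tissues in which the groups do not overlap. SNCG, MAMDC4, APOOL, BEX1, GBP1 and ARMCX2 keep 1 sign in all 9 tissues, while the difference of ARMCX2 outside lung is at most 0.66.

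Rongchang and Tibetan wild boar, both Chinese, have no lung library and took no part in the lung comparison. Their other tissues were read against the range of the Western libraries of the same tissue. Rongchang lay outside that range, on the side of the Chinese lungs, in 8 of 8 tissues for GBP1, MAMDC4 and BEX1. It did so in 7 of 8 for SNCG and APOOL and in 5 of 8 for ARMCX2, but in 2 for S100A1 and 1 for INPP5F. Over all 14034 genes tested in lung it did so in 8 of 8 tissues for 0.599%, in at least 7 for 1.92% and in at least 5 for 8.99%. The median over all these genes was 1 tissue. For GBP1, 4 of the 8 tissues had at least 3 libraries of the 8 breeds at 1 FPKM. Tibetan wild boar, with spleen and both skeletal muscles, lay outside the Western range in this way in 3 of 3 tissues for APOOL and BEX1. It did so in 2 of 3 for SNCG, GBP1, MAMDC4 and INPP5F, in 1 of 3 for S100A1 and in 0 of 3 for ARMCX2. Over all genes tested it did so in 3 of 3 for 2.95%, in at least 2 for 14.8% and in 0 for 55.6%. For SNCG the exception of both was spleen, where the Western range includes the library labelled Berkshire spleen. In Tibetan wild boar SNCG was at 6.84 in psoas major and 7.17 in longissimus dorsi. The other Chinese breeds averaged 0.909 in psoas major and 0.996 in longissimus, against Western means of 13.6 in psoas major and 15.2 in longissimus. Tibetan wild boar thus stood between the means in both muscles.

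**Figure D4:**
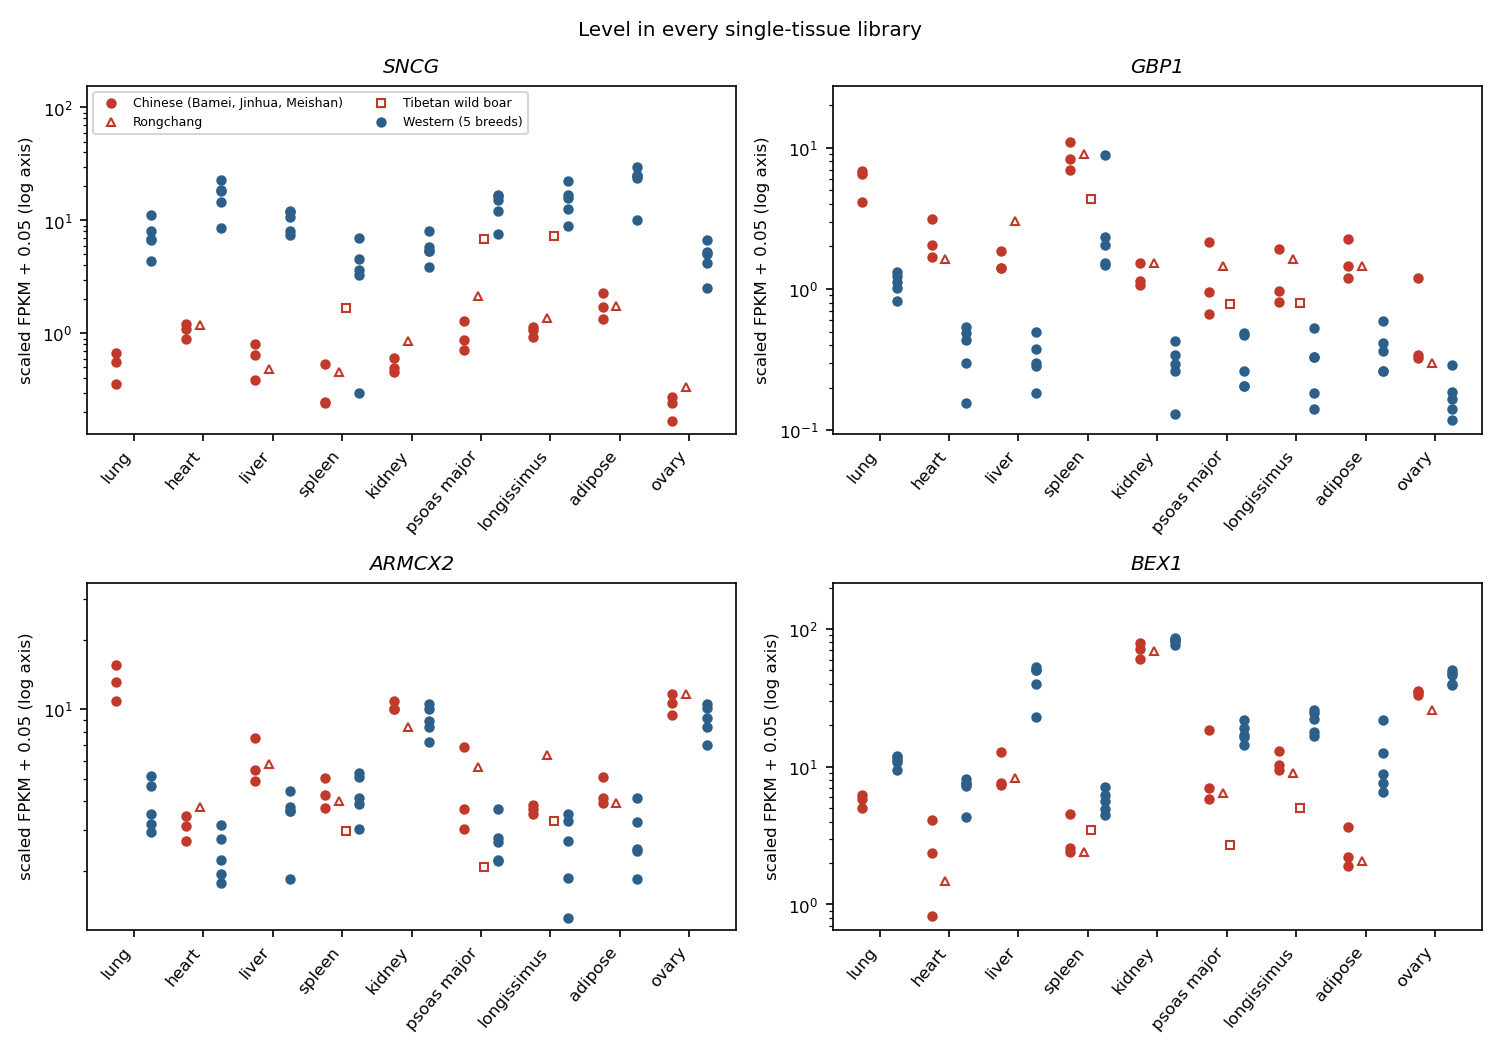
Level of SNCG, GBP1, ARMCX2 and BEX1 (scaled FPKM + 0.05, log axis) in each of the 83 single-tissue libraries, by tissue. Chinese breeds with a lung library are red dots, Rongchang open triangles, Tibetan wild boar open squares and Western breeds blue dots. The 1 blue dot among the red ones for SNCG and GBP1 in spleen is the library labelled Berkshire spleen.

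Apart from GBP1 the interferon-induced genes did not pass. Of 28 tested, 1 was called, 2 had an unadjusted p below 0.05, and 26 were above 0, with a median of 0.50 beside 0.00 over all genes. Of all genes tested, 0.164% were called, 7.99% had an unadjusted limma p below 0.05 and 49.0% were above 0. The median of the list was 0.05 without Meishan, 0.19 without Berkshire, 0.32 without Landrace, 0.84 without Bamei and 0.89 without Hampshire. MX1, a GTPase that blocks RNA viruses, was at 58.5 in Bamei, 187 in Jinhua and 414 in Meishan, against 21.3 in Berkshire, 395 in Hampshire, 44.3 in Landrace, 64.1 in Large White and 52.7 in Piétrain (log2 difference 1.31 ± 0.93, limma adjusted p = 0.836). The summed level of the 27 other genes was 939.5 in Bamei, 1441 in Jinhua and 2701 in Meishan, against 546 in Berkshire, 3183 in Hampshire, 697 in Landrace, 1165 in Large White and 1055 in Piétrain. Hampshire and Meishan were thus the highest in these sums and in MX1, while GBP1 was at 1.88 in Hampshire and 10.2 in Meishan. IRF1, a transcription factor of the response, was at 93.9 in Bamei, 93.0 in Jinhua and 50.9 in Meishan, against 42.6 to 59.0 in the Western lungs, which overlap (0.57 ± 0.21, limma adjusted p = 0.558).

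Markers of B cells lay higher in some of the Chinese lungs, those of T and NK cells overlapped, and none was called. In these bulk samples, more cells of a type and more RNA per cell cannot be told apart. All 6 B and plasma cell genes tested were above 0, with a median of 1.18 that was 0.62 without Bamei, and 5 had an unadjusted p below 0.05. The shares over all genes tested were 49.0% above 0, 7.99% with an unadjusted limma p below 0.05 and 0.164% called. MS4A1, the B cell surface protein CD20, was at 14.998 in Bamei, 6.92 in Jinhua and 3.97 in Meishan, against 2.43 in Berkshire, 2.40 in Hampshire, 2.15 in Landrace, 1.82 in Large White and 3.87 in Piétrain (1.30 ± 0.35, limma adjusted p = 0.334). The groups just missed each other, and Bamei was far above the rest. The summed level of the 6 genes overlapped, at 145 in Bamei, 56.2 in Jinhua and 36.0 in Meishan, against 17.8 to 55.3 in the Western lungs. CD79B, a part of the B cell receptor, was at 5.29 to 22.4 in the Chinese and 2.32 to 5.77 in the Western lungs. Of 12 T and NK cell genes 11 were above 0, with a median of 0.34 that was -0.01 without Bamei, 0.58 without Large White and 0.73 without Jinhua. Their summed level was 753.2 in Bamei, 264.8 in Jinhua and 509.7 in Meishan, against 235.6 in Berkshire, 385 in Hampshire, 305.2 in Landrace, 847.9 in Large White and 458 in Piétrain. The highest sum was thus that of a Western lung, Large White, and Jinhua was the second lowest. CD3D, a chain of the T cell receptor complex, and IL7R, the receptor of interleukin 7, had the smallest p of the fixed reading (0.62 ± 0.45 and 0.35 ± 0.19, limma adjusted p = 0.839 and 0.744).

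Cytokines and chemokines gave no call among 14 tested, with 11 above 0 and a median of 0.33, which was 0.21 without Landrace, 0.16 without Jinhua and 0.08 without both. IL18, a cytokine released by inflammasome activity, was at 30.3 in Bamei, 21.8 in Jinhua and 16.1 in Meishan, against 9.29 in Berkshire, 11.996 in Hampshire, 8.13 in Landrace, 10.7 in Large White and 11.4 in Piétrain. The groups did not overlap, and the gene was not called (1.04 ± 0.20, limma adjusted p = 0.156). The neutrophil chemokine CXCL8 was at 4.71 to 22.5 in the Chinese and 1.59 to 6.06 in the Western lungs (1.57 ± 0.49, limma adjusted p = 0.448). TLR4, the receptor of bacterial lipopolysaccharide, was at 34.7 to 40.9 in the Chinese and 29.4 to 31.7 in the Western lungs (0.29 ± 0.08, limma adjusted p = 0.325), as 1 of 14 sensors tested, of which none was called. Of 8 genes of antigen presentation, led by TAPBP (0.36 ± 0.17, limma adjusted p = 0.677), none was called and 7 were above 0, and their median was 0.24. Complement and collectins gave no call among 12 (median 0.04). Such absences stand beside 0.164% of genes called over all those tested, and the counts above 0 stand beside 49.0% of them.

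Airway secretory genes varied strongly between breeds. SCGB1A1, the main secretoglobin of club cells, was at 2239 in Bamei, 2527 in Jinhua and 1501 in Meishan, against 61.7 in Berkshire, 2117 in Hampshire, 40.2 in Landrace, 605 in Large White and 195 in Piétrain. Only Hampshire reached the Chinese range, and the gene was not called (log2 difference 3.15 ± 1.20, limma adjusted p = 0.573). SCGB3A2, another club cell secretoglobin, was at 457 in Bamei, 466 in Jinhua and 293 in Meishan, against 217 in Berkshire, 87.7 in Hampshire, 215 in Landrace, 228 in Large White and 181 in Piétrain. Its groups did not overlap, and it was not called either (1.17 ± 0.33, limma adjusted p = 0.367). SCGB3A1, of the same family, overlapped fully, at 142 to 425 in the Chinese and 138 to 668 in the Western lungs. The secreted defence proteins BPIFB1 and BPIFA1 had negative differences, with overlapping groups. BPIFB1 was at 8.40 to 76.6 in the Chinese and 20.1 to 226 in the Western lungs (-1.25 ± 0.86, limma adjusted p = 0.829), and BPIFA1 at 39.9 to 358 in the Chinese and 78.1 to 528 in the Western lungs (-0.92 ± 0.85, 0.885). None of the 9 club, goblet and basal cell genes tested was called, beside 0.164% of all genes, and their median was 0.10. How much airway each piece of lung held was not tested.

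The lists for cells of the alveolus and the vessels gave no call. With 0.164% of all genes tested called, lists this short could each hold none without standing apart. All 8 type 1, 10 type 2 and surfactant, 8 ciliated, 11 blood vessel and 6 lymphatic genes tested failed the threshold, with medians of 0.08, -0.13, -0.10, -0.10 and -0.11. GPRC5A, a receptor of type 1 cells, was at 117 to 135 in the Chinese and 61.4 to 113 in the Western lungs (0.59 ± 0.18, limma adjusted p = 0.442), and the guidance molecule SEMA3E at 13.9 to 17.0 in the Chinese and 16.8 to 25.1 in the Western lungs (-0.44 ± 0.14, limma adjusted p = 0.445). The aspartic protease NAPSA (0.30 ± 0.16) and surfactant protein SFTPB (-0.21 ± 0.14) had the smallest p of type 2 genes (limma adjusted p = 0.711 and 0.813). Macrophages (10 tested, median -0.04), fibroblasts and matrix (15, -0.12), smooth muscle and pericytes (10, -0.14) and cartilage (9, -0.15) likewise held no called gene, as did neutrophils and mast cells (7, -0.29), red blood cells (3, -0.63) and cell division (14, -0.22).

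The lists of metabolic and stress genes below gave no call. Over all genes tested 0.164% were called, so a list this short without a call is not set apart from the rest. No gene was called among 14 of lipid and cholesterol synthesis (median 0.07), 10 of drug metabolism (-0.07), 12 of the hypoxia response (-0.01), 14 clock genes (0.00), 12 immediate early genes (-0.03), 14 of heat shock and protein folding (-0.05), 7 of the glucocorticoid response (-0.20), 13 of the mitochondrial genome (-0.03) and 7 ribosomal proteins (-0.04). SCD, the desaturase that makes oleic acid, was at 59.8 in Bamei, 57.3 in Jinhua and 50.9 in Meishan, against 34.6 in Berkshire, 23.1 in Hampshire, 19.3 in Landrace, 25.9 in Large White and 50.3 in Piétrain. The groups did not quite meet, with Piétrain close to Meishan (0.93 ± 0.27, limma adjusted p = 0.416). AOX1, an oxidase of aldehydes and drugs, was at 1.43 in Bamei, 2.07 in Jinhua and 0.309 in Meishan, against 2.62 to 4.37 in the Western lungs (-1.14 ± 0.27, limma adjusted p = 0.267). Its groups did not overlap. APOA1, the main protein of high-density lipoprotein and 1 of the liver list, was at 22.1 to 33.8 in the Chinese and 34.0 to 56.5 in the Western lungs (-0.68 ± 0.18, limma adjusted p = 0.334). Adipocyte genes (4 tested, median -0.12) and cardiac and skeletal muscle genes (4, 0.16) gave no call.

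**Figure D5:**
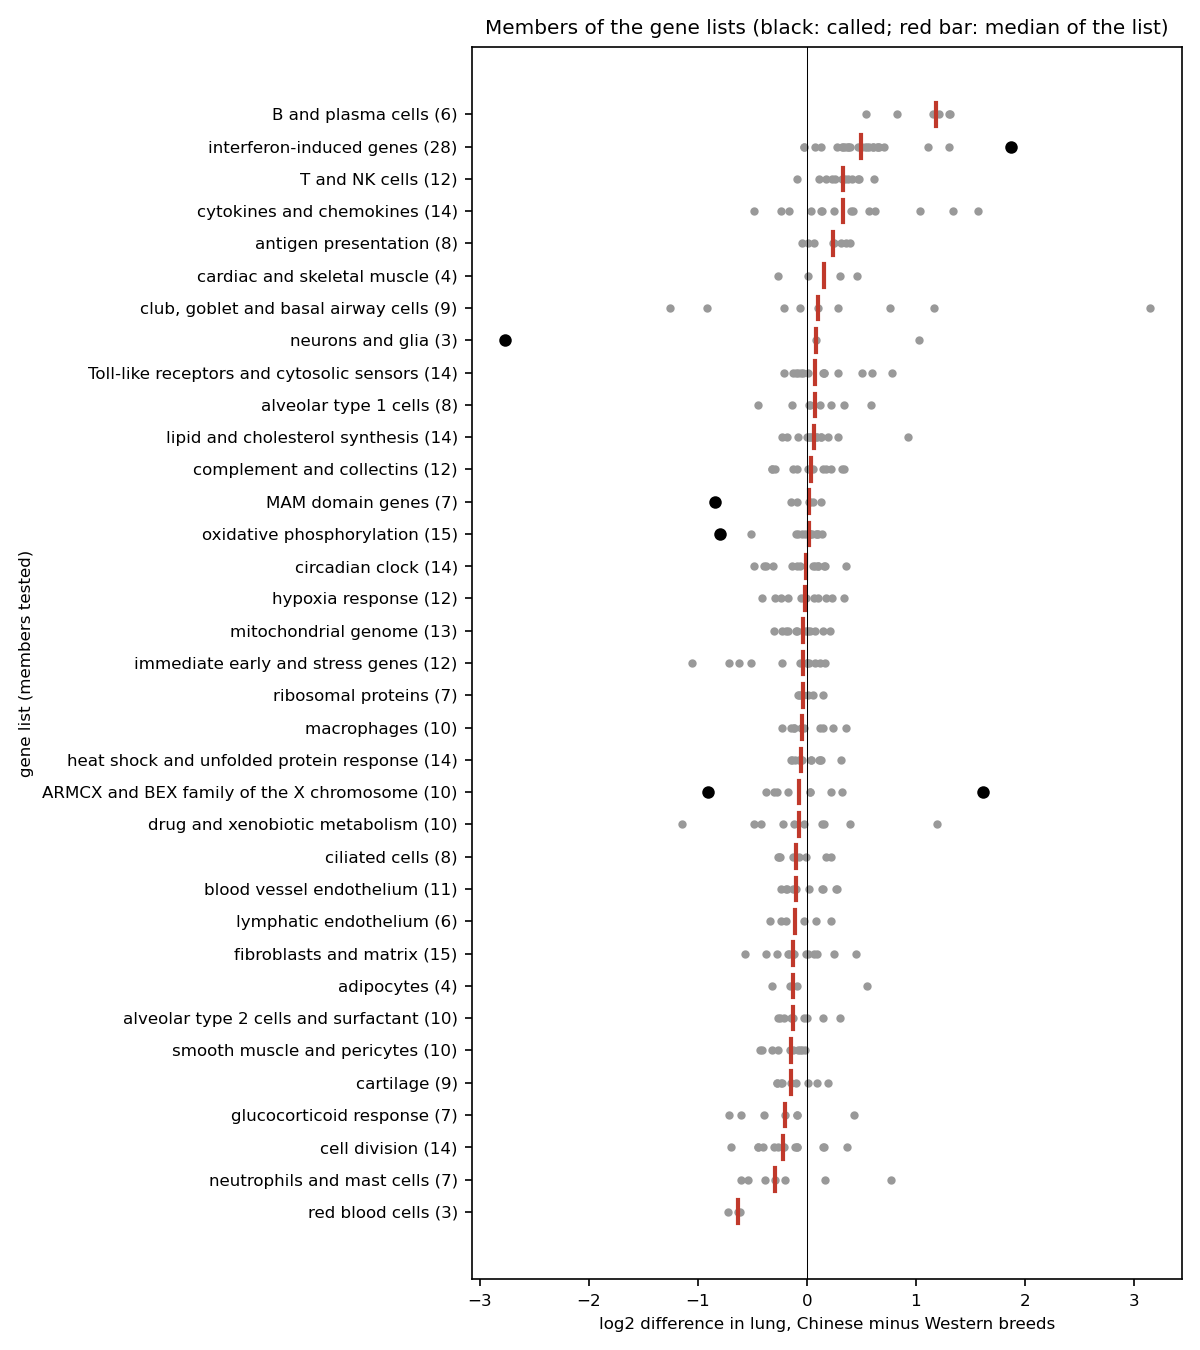
Log2 difference in lung (Chinese minus Western breeds) of every tested member of the gene lists with at least 3 tested members, ordered by the median of the list (red bar), with called genes in black. The called genes are GBP1, ARMCX2, BEX1, SNCG, MAMDC4 and APOOL, and no other list member shown was called.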

How the data were processed

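The authors deposited FPKM values per gene ID, made with TopHat and Cufflinks 2.2.1 on Sscrofa10.2, per the submitters' processing notes; the annotation, options and filters are not given in the sources used here. Symbols came from a table of names by gene ID (11804 of 25322 matched), and chromosomes from RefSeq Sscrofa11.1 by symbol. The deposited FPKM were scaled by median ratios over the libraries of each fit. A gene entered the fit when at least 3 of the lungs reached 1 FPKM, and log2(scaled FPKM + 1) was fitted with limma 3.58.1 (trend, robust; statmod 1.5.0) in R 4.3.3, Chinese minus Western. Adjusted p are two-sided and Benjamini-Hochberg corrected over all 14034 genes. The fit was also run on simulated data, with changes placed only in genes above a set level, so recovery of low-level genes was not tested. Figures used Python 3.11.15 with matplotlib 3.10.9.

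Named were GBP1, ARMCX2 and MAMDC4, all called genes with a symbol, the smallest p up to 10 per direction, called genes of the lung minus other tissues test, and per list the called members or the 2 smallest p. Further list members and the IDs without symbol were picked after their values were seen. The 38 lists (633 symbols, 409 matched) and the members were chosen with earlier results of these data known. The check of library labels was added after seeing the data. Mesothelium and thymus and thyroid lists had no tested gene. Alternatives were no scaling, quantile normalization, pseudocount 0.1, no filter, a filter at 5 FPKM, limma without trend and robust options, each library left out, and, for lung against other tissues, spleen left out or both muscles as 1 tissue. Added after seeing the data were leaving out Jinhua and Landrace together and leaving out the library labelled Berkshire spleen. A result that the naming rule gives is not reported here.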

Additional observations from a re-analysis of the deposited data

Results flagged for a closer look

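Of 83 genes named or singled out, 9 had 1 Western lung far from the other 4 by Dixon's test, which chance gives in about 1 in 20 groups. Hampshire stood apart in 5 of them: SCGB1A1 at 2120 (others 40.2 to 605), TLR7 at 11.1 (2.22 to 4.22), PSMB9 at 3.84 (1.68 to 2.02), PCDH19 at 5.15 (5.92 to 6.22) and ENSSSCG00000026306 at 0.147 (others 0), all in scaled FPKM. With the others at 0, any value above 0 would stand apart in the last of these. Piétrain stood apart in ENSSSCG00000024803 at 714 (163 to 216) and in CFD at 1180 (767 to 871). Berkshire stood apart in HBM at 62.3 (9.97 to 22.0) and RRP36 at 8.40 (8.96 to 9.16).

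The origin difference in lung differed from that in the other 8 tissues, by the limma test of that difference, in 5 genes. On the log2 scale it was 1.13 for ASGR2, -1.03 for ASPA, -3.14 for ENSSSCG00000011147, -3.32 for ENSSSCG00000021965 and -6.77 for ENSSSCG00000024803. For the last of these, 0 of the other 8 tissues had at least 3 libraries at 1 FPKM, so its value largely repeats the lung difference. ENSSSCG00000021965 met the filter on low values through the Western lungs alone.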

How the results depend on the processing

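The 23 lung calls became 14 with a filter at 5 FPKM, 10 to 24 when 1 library was left out, and 5 without Jinhua and Landrace together. Other settings gave 19 to 34. The 5 calls of lung against other tissues became 3 with a filter at 5 FPKM, 3 without trend and robust options, 3 to 8 when 1 breed was left out and 3 without Jinhua and Landrace together. Without the library labelled Berkshire spleen there were 5. GBP1, SNCG, ENSSSCG00000021965 and ENSSSCG00000021339 were called in lung in all 15 settings. Of these, SNCG and ENSSSCG00000021965 met the filter on low values through the Western lungs alone. With FPKM as deposited the lung against other tissues difference of MAMDC4 was -0.015. The median of the T and NK cell list was between -0.0087 and 0.73 when 1 library was left out. The causes were not tested. No paired analysis was possible because no Chinese lung is matched to a Western lung by a replicate number in the labels. Lung and other tissues were paired by breed in the test between them. Read depth limits low values by an amount that FPKM alone does not show.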
